A study of Arabidopsis thaliana with 32 samples.

Results

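The genes described here are 99 Arabidopsis root genes whose array signal fell as the dose of sorbitol and of polyethylene glycol 8000 (PEG) rose, and did not fall by 0.1 or more per 100 mM of ethylene glycol. They were selected on those 3 measured slopes. Every value of theirs under sorbitol, PEG or ethylene glycol is therefore a description, given with no test. A slope is the least-squares change in log2 signal per 100 mM of solute, with the control counted as 0 mM, taken in each of 2 runs of arrays and averaged. The fits covered 28283 entries, called all genes below. Of these, 11731 are probe sets that list no gene or several, and 16552 are genes with a name. A mean log2 signal of at least 3 was reached by 10002 named genes, and 8932 of those had an ethylene glycol slope above -0.1. The 100 with the lowest value of the larger of the sorbitol and PEG slopes were taken. The choice names 3 genes to be left out, and of these only AT5G19190 was among the 100, which leaves 99. AT3G11385 had a PEG slope of -0.11, too shallow to enter, and IQD19 had an ethylene glycol slope of -0.13, below the bound.

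A solute outside a plant cell draws water out of it and lowers turgor, the pressure of the cell on its wall, for as long as the solute stays outside. Sorbitol and PEG cross the plasma membrane poorly, so the osmotic difference lasts, and PEG of this size is also held back by the cell wall. Ethylene glycol crosses the membrane readily, so it raises the osmotic pressure of the solution while the loss of water from the cell is brief. NaCl adds ions that are taken up through transporters and channels and carry effects of their own.

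All plants were wild-type Columbia-0 grown for 16 days, the last of them in hydroponic solution, and only roots were collected. Plants were moved for 15 min to fresh solution (control) or to solution with NaCl (25, 50, 75 and 100 mM), sorbitol (50, 100 and 150 mM) or PEG at 75, 100, 125 or 150 mM. A further set of plants received ethylene glycol at doses of 50, 100, 150 and 200 mM. Each of these 16 groups has 2 arrays, 1 in each run. A run is the set of 16 arrays whose titles are numbered 17 to 32 (run 1) or 33 to 48 (run 2), and the labels do not say what a run was. Whether both arrays of a group hold RNA of separate plants or cultures is not labelled either, so each p-value reflects only how much these samples vary, and that spread may be technical. The doses are as labelled, and for a polymer as large as PEG 8000 the molar scale is nominal.

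The deposited values run from 0.2 to 12.45 log2 units, with array medians between 4.11 and 4.24. Of 40 cell type marker entries, 3 could be matched to a named gene: PYK10, a root and hypocotyl beta-glucosidase, and the root hair expansins EXPA7 and EXPA18. Their mean log2 signals were 10.7, 7.3 and 6.3. Green-tissue markers were not among the named genes, so leaf material in the samples was not examined. Whole roots were used, so fewer cells of a type and less RNA per cell cannot be told apart in any value below.

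Little is known by name about these genes. All 99 matched a protein-coding gene in RefSeq (assembly TAIR10.1), 13 of them with a symbol and 2 more with a name among their synonyms. The other members are given by locus ID and no role is stated for them. Their mean log2 signal ran from 3.02 to 8.92 with a median of 4.87, against a median of 5.22 over the 10002 named genes of the same level filter. No member shared its values with another probe set.

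With sorbitol the members' slopes ran from -0.59 to -0.23 with a median of -0.29, where the median over the 10002 named genes was -0.022. The medians in run 1 and run 2 were -0.33 and -0.29. With PEG they ran from -0.59 to -0.23 with a median of -0.31, against -0.048 over the named genes, and the run medians were -0.28 and -0.37. In both runs and with both solutes the slope was below 0 for 94 of the 99 genes. The choice on these slopes largely sets this count. With sorbitol alone it was below 0 in both runs for 96 members, against 3129 of the 10002 named genes. With PEG alone it was so for 97, against 3982. The last genes inside the choice were AT1G11380, AT3G19330 and AT4G15010, with a larger slope of -0.228, -0.227 and -0.227. The first outside were AT2G07787, AT4G03156 and NAI1, at -0.226, -0.226 and -0.2257, so the list ends within a continuous range. In the limma fit, 3 members had an adjusted p under 0.05 for a falling sorbitol slope (0.134% of all genes) and 9 for a falling PEG slope (0.481%). These calls rest on the values that chose the genes, and nothing is read from them.

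The falls were small on single arrays and present at the lowest dose. Relative to the control array of the same run, the members' median change in run 1 was -0.33, -0.40 and -0.51 at 50, 100 and 150 mM sorbitol. In run 2 it was -0.27, -0.31 and -0.43. At 150 mM, 99 members in run 1 and 96 in run 2 lay below the control (56.5% and 52.3% of named genes). With PEG at 75, 100, 125 and 150 mM the medians were -0.23, -0.31, -0.35 and -0.42 in run 1. They were -0.33, -0.32, -0.48 and -0.53 in run 2. The deepest median of either solute thus fell at its highest dose in both runs, and most of the drop at the highest sorbitol dose was already there at the lowest.

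Taking group means over both runs, the control was the highest of the sorbitol groups for 92 members and the 150 mM group the lowest for 66, against 37.0% and 26.1% of the named genes. The mean fell at every sorbitol step in 33 members (6.21% of named genes) and at every PEG step in 12 (2.5%). Below the control of their own run on every sorbitol array were 61 members (12.5% of named genes), and on every PEG array 59 (9.0%). These counts come from the arrays that chose the genes.

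**Figure D1:**
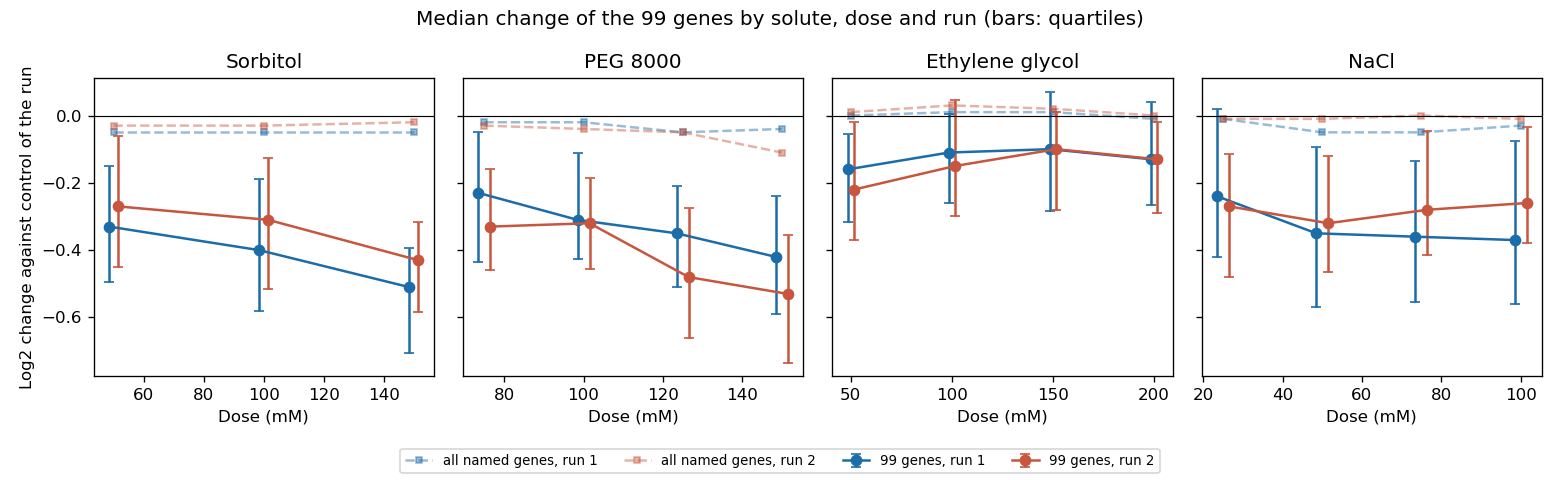
Median log2 change of the 99 genes against the control array of the same run, by dose in mM, for the 4 solutes; solid lines with circles are the 99 genes in run 1 (blue) and run 2 (red), bars their quartiles, and dashed lines the median of the 10002 named genes. The medians reach -0.51 and -0.43 at 150 mM sorbitol and -0.42 and -0.53 at 150 mM PEG, but stay between -0.22 and -0.10 under ethylene glycol.

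On the ethylene glycol arrays the members' medians were below the control too, by less and with no deepening over the doses. The choice used both the control and the ethylene glycol arrays, so an effect of ethylene glycol cannot be read from this. In run 1 the median changes at 50, 100, 150 and 200 mM were -0.16, -0.11, -0.10 and -0.13. In run 2 they were -0.22, -0.15, -0.10 and -0.13. Between 66 and 81 of the 99 genes lay below the control on each ethylene glycol array, against 44.5% to 51.2% of named genes. On every one of these arrays 16 members were below the control (4.63% of named genes). The slope with the control had a median of -0.041, which became -0.006 without the run 1 control array and 0.003 without that of run 2. Its median over the treated doses alone was 0.043, with 30 members below 0 (52.8% of named genes). Over the treated doses alone the medians of the sorbitol and PEG slopes were -0.18 and -0.26. Below 0 were 81 and 87 members (48.4% and 60.2% of named genes). Part of the slopes with the control is thus the step from the control to the lowest dose, and each run holds 1 control array.

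At the doses that 2 solutes share, the step from the control drops out. The members' median level was 0.22 log2 units lower under sorbitol than under ethylene glycol (-0.22 against -0.048 over the named genes). The difference was below 0 in 96 of 99, and in 6491 of the 10002 named genes. Under PEG the members were lower than under ethylene glycol by a median of -0.25 (-0.07 over the named genes). This again held for 96, and for 6826 named genes. Sorbitol and PEG differed by a median of -0.025 (0.01 over the named genes). Lower under sorbitol were 57 members and 4648 named genes. These differences follow from the choice and have no test.

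Levels below the control were not limited to sorbitol and PEG. The NaCl arrays, which the choice did not use, showed lower levels of most members too. With the control as 0 mM the members' NaCl slopes had a median of -0.25, against -0.026 over the named genes, with run medians of -0.28 and -0.21. They were below 0 in 79 of 99 members (55.7% of named genes) and below -0.1 in 72 (34.0%). The range was wide, from -0.77 to 0.50. On every NaCl array 26 members were below the control of their run (7.51% of named genes). At 25, 50, 75 and 100 mM the median changes were -0.24, -0.35, -0.36 and -0.37 in run 1, and -0.27, -0.32, -0.28 and -0.26 in run 2. This slope shares the control arrays with those that chose the genes and is a description. At 50 and 100 mM, the doses NaCl shares with ethylene glycol, the members were lower under NaCl by a median of -0.15 (-0.043 over the named genes). They were lower in 71 of 99, beside 6042 of the 10002 named genes. The choice used the ethylene glycol arrays and kept genes that fell little there, so this difference is also a description with no test.

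**Figure D2:**
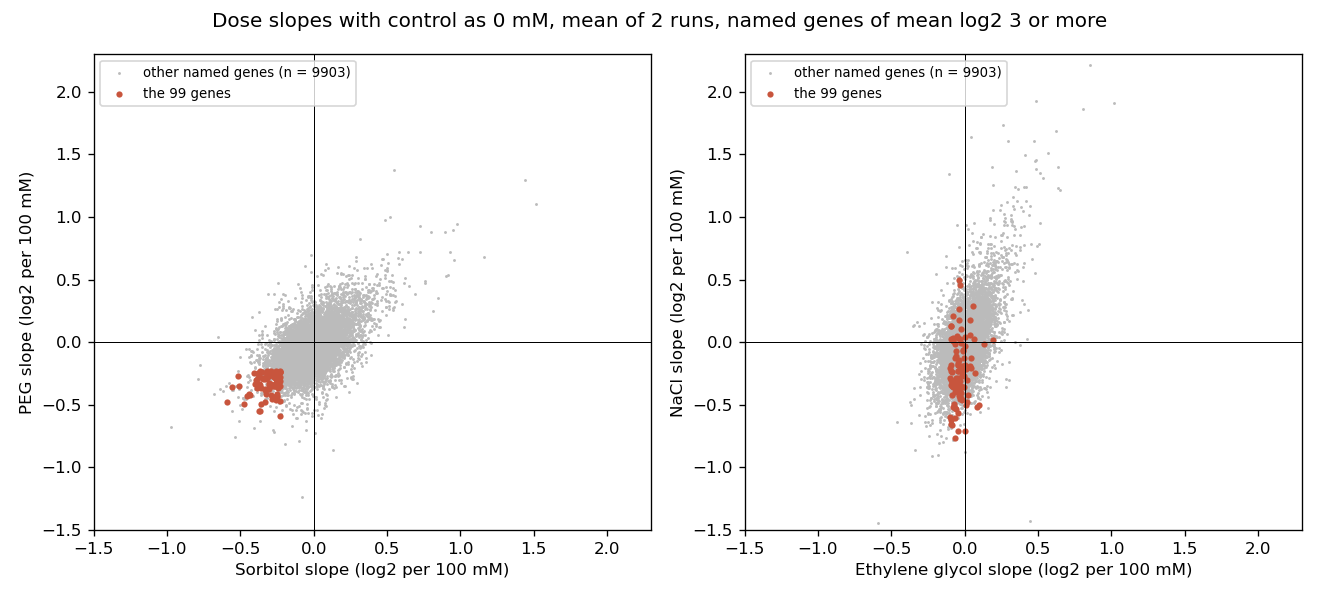
Dose slopes in log2 per 100 mM, mean of 2 runs, of the 99 genes (red) and the other 9903 named genes of mean log2 3 or more (grey); the left panel sets PEG against sorbitol and the right panel NaCl against ethylene glycol. The red points fill the corner below -0.22 on both left axes by selection, and spread from -0.77 to 0.50 in NaCl slope, with 79 below 0.

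The NaCl slope over the 4 treated doses, without the control, is independent of the choice and was tested with limma over all genes. By Benjamini-Hochberg adjusted p, 0 members were lower (0.0177% of all genes, 5 genes) and 0 were higher (0.576%, 163 genes). At an unadjusted p under 0.05, 7 members were lower (3.0% of all genes) and 9 were higher (3.76%). The members' median was -0.08 against -0.018 over the named genes, and the run medians were -0.14 and 0.04. The test called few slopes of known size in simulated data, so 0 calls does not show that the members had no slope from 25 to 100 mM NaCl. In run 1 the median change went from -0.24 at the lowest dose to -0.37 at the highest, and in run 2 from -0.27 to -0.26.

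The members' slopes over the treated NaCl doses ran from -0.80 to 1.37. The choice bounded their slopes with the other solutes but not this one, so the spreads cannot be compared. Whether members differ from one another here was not tested. AT5G09840 read 4.79 and 5.26 in the controls of runs 1 and 2. From 25 to 100 mM NaCl it read 4.55, 4.12, 4.35 and 3.95 in run 1 and 5.22, 4.98, 4.95 and 4.42 in run 2. It lay below the control of its run on all 8 NaCl arrays, and its slope over the treated doses was -0.80 (SE 0.26, limma adjusted p = 0.264). The next lowest p-values among falling members were those of AT5G42785 (-0.71, adjusted p = 0.329) and AT1G08590 (-0.54, adjusted p = 0.417). AT1G08590 is PXL1, a leucine-rich repeat receptor kinase related to the vascular regulator PXY.

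AT2G17660 moved the other way, reading 3.81, 4.05, 4.52 and 4.32 at the 4 NaCl doses in run 1 and 3.27, 3.12, 4.22 and 4.52 in run 2, with controls of 4.50 and 3.93. Its treated slope was 1.37 (SE 0.39, limma adjusted p = 0.140). AT5G38700 read 5.05, 5.77, 5.97 and 5.79 in run 1 and 4.78, 5.04, 5.86 and 5.76 in run 2, with controls of 6.54 and 5.49. Its treated slope was 1.24 (SE 0.34, limma adjusted p = 0.125). AT1G56660 had a treated slope of 0.79 (SE 0.22, limma adjusted p = 0.146). In all 3 the 25 mM arrays were below the control in both runs and the higher doses above the 25 mM level, apart from AT2G17660 at 50 mM in run 2. AT5G38700 passed with the NaCl arrays fitted alone (slope 1.24, limma adjusted p = 0.0206). With every NaCl array kept, that was the only setting tried in which a member was called. Its fit leaves 3 residual degrees of freedom, against 15 in the main fit. Without the run 1 array at 100 mM, AT1G56660 had a slope of 1.14.

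AT2G17300, first in the order of the larger of the sorbitol and PEG slopes, read 4.69 and 4.75 in the controls. At 50, 100 and 150 mM sorbitol it read 4.66, 4.20 and 3.89 in run 1 and 4.44, 3.82 and 3.93 in run 2. With PEG from 75 to 150 mM it read 4.60, 4.34, 4.29 and 4.10 in run 1 and 4.40, 4.66, 4.00 and 3.88 in run 2. Every one of these 14 arrays was below the control of its run. Ethylene glycol gave 5.06, 4.69, 4.75 and 4.36 in run 1 and 4.70, 4.51, 4.70 and 5.01 in run 2, on both sides of the controls. NaCl gave 4.44, 4.46, 4.13 and 4.09, then 4.29, 4.40, 4.04 and 3.85, so the gene was lower with each of the 3 other solutes. Its sorbitol, PEG and NaCl slopes were -0.59, -0.47 and -0.71, beside -0.045 for ethylene glycol.

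The other leading genes differed in their NaCl slope. The 20 members with the lowest larger slope include AT1G64561 (sorbitol -0.45, PEG -0.43, NaCl 0.028) and AT3G52070 (-0.36, -0.49, NaCl 0.008). AT1G64561 was still below the control on 6 of 8 NaCl arrays, with a median change of -0.195 and a treated slope of 0.344. AT3G52070 was below it on 5 of 8, with a median change of -0.025. AT1G63380 (-0.55, -0.36) had a NaCl slope of 0.034, yet it was below the control on 7 of 8 NaCl arrays, by as much as -1.05, and its slope over the treated NaCl doses was 0.90 (limma adjusted p = 0.487). AT1G11200 (-0.43, -0.42, NaCl -0.36), AT3G61898 (-0.38, -0.37, NaCl -0.34) and AT3G02120 (-0.38, -0.33, NaCl -0.39) had mean NaCl slopes close to their other slopes. In runs 1 and 2 the NaCl slopes were -0.7 and -0.016 for AT1G11200 and -0.604 and -0.068 for AT3G61898. For AT3G02120 they were -0.508 and -0.28. The remaining leading genes were AT2G23100, AT1G29840, AT5G05890, AT2G05810, AT1G60130 and AT1G50110, with sorbitol slopes between -0.51 and -0.33 and PEG slopes between -0.38 and -0.33. AT3G45070, the sulfotransferase SULT202B1, had slopes of -0.37 and -0.34.

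**Figure D3:**
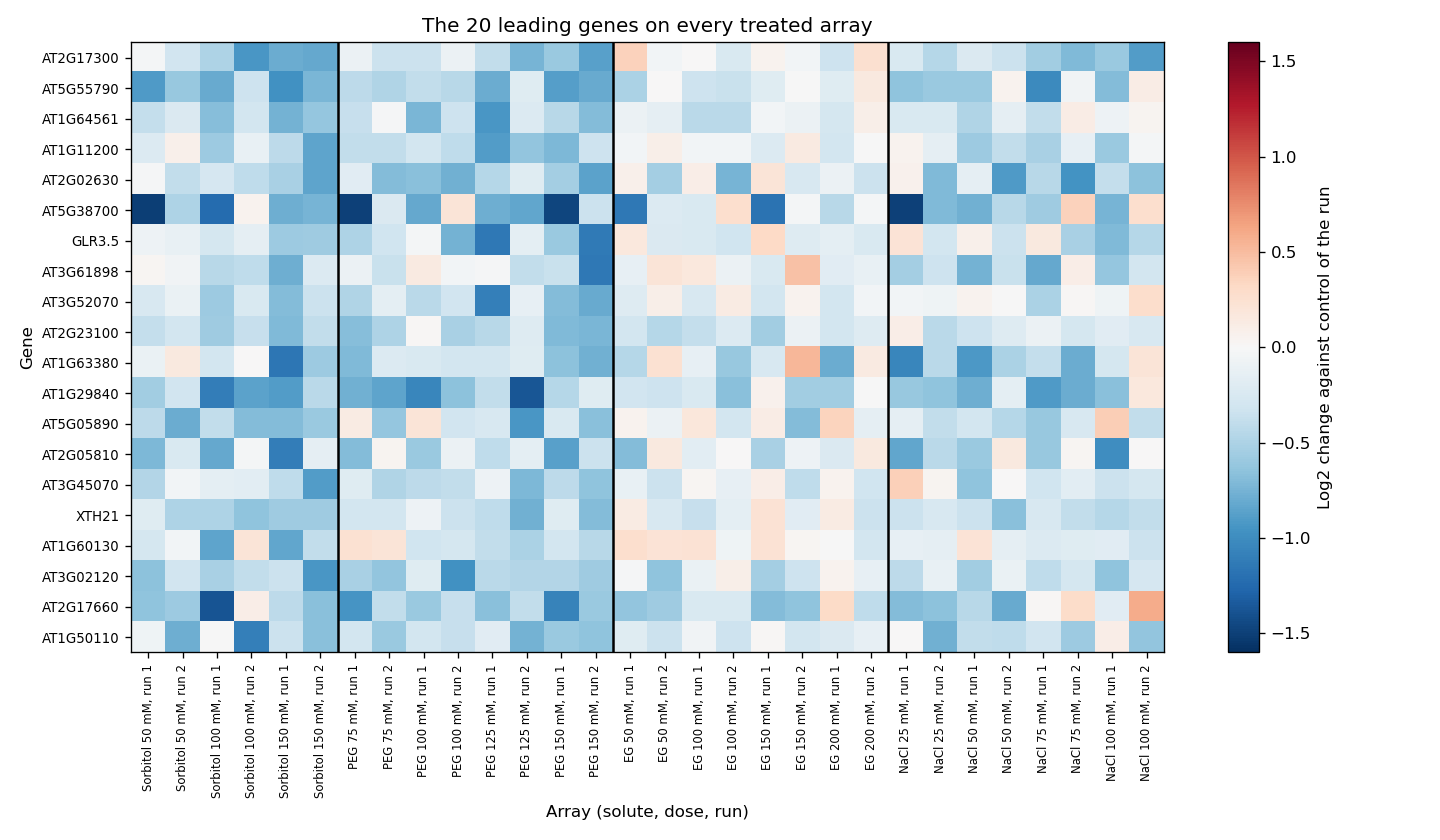
Log2 change of the 20 genes with the lowest value of the larger of the sorbitol and PEG slopes (rows) on each treated array (columns: solute, dose in mM and run; EG is ethylene glycol) against the control array of the same run. Blue is below and red above the control, between -1.51 and 0.59, and 16 to 20 of the 20 genes are below the control on each sorbitol array, 17 to 20 on each PEG array, 12 to 19 on each NaCl array and 11 to 16 on each ethylene glycol array.

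Because the runs share no array, 1 run can choose genes and the other be read. The 100 genes that the same rule takes from run 1 alone had median sorbitol and PEG slopes of -0.35 and -0.33 there. In run 2 these became -0.052 and -0.14, against -0.01 and -0.063 over the named genes. Sorbitol slopes in run 2 were below 0 for 62 of the 100 (52.4% of named genes) and PEG slopes for 73 (62.9%). The 100 genes taken from run 2 went from -0.34 and -0.38 to -0.12 and -0.12 in run 1, against -0.032 and -0.031. Below 0 there were 66 for sorbitol (57.0% of named genes) and 70 for PEG (57.9%). With both solutes at once, 51 and 52 genes fell in the run that did not choose them, against 41.4% and 40.7% of the named genes. Most of the size of the slopes was thus not carried from the choosing run to the other. For both solutes and in either direction the medians stayed below those of the named genes. The ethylene glycol medians in the other run were 0.023 and -0.035, against 0.002 and -0.004 over the named genes. Below 0 were 45 and 67 genes (48.6% and 51.7% of named genes). The NaCl medians were -0.032 and -0.188, against -0.004 and -0.048 over the named genes. Below 0 were 51 and 71 genes (50.6% and 57.4% of named genes). For the genes that run 2 chose, the NaCl median in run 1 was thus lower than the sorbitol and PEG medians there.

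**Figure D4:**
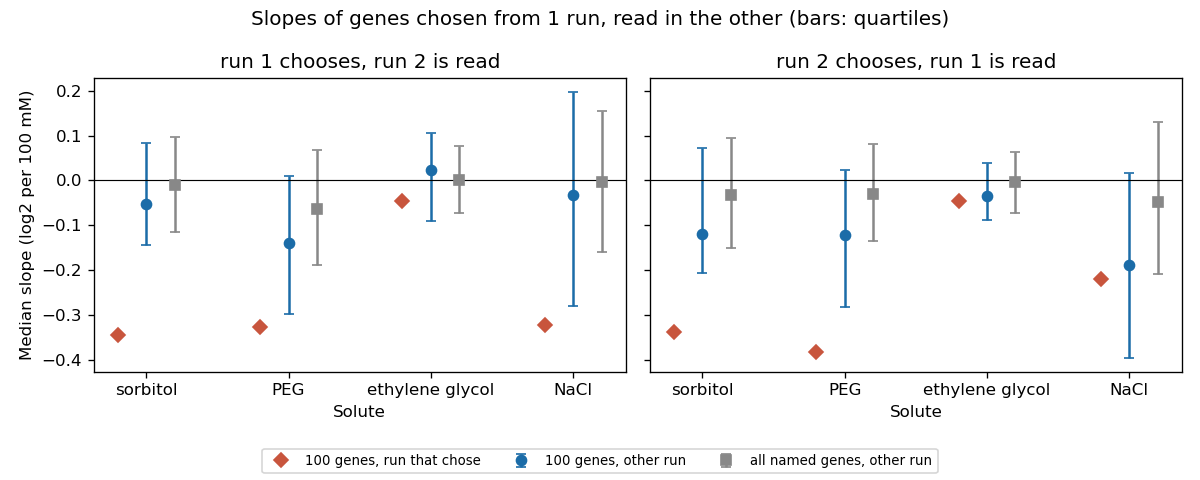
Median slope (log2 per 100 mM) by solute of the 100 genes that each run alone chose, in the run that chose them (red diamonds) and in the other run (blue circles, bars are quartiles), beside all named genes in the other run (grey squares). For sorbitol the median shrinks from -0.35 to -0.052 in run 2 and from -0.34 to -0.12 in run 1.

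In both of these lists were 4 genes, APG8A, GLR3.5, AT2G02630 and AT5G55790, and all 4 are members. Each list took 100 genes from the 10002 named genes of the level filter. Whether 4 shared genes are more than 2 unrelated lists would hold was not tested. Of the members, 20 were in the list from run 1 and 29 in that from run 2. The 4 are described because both runs chose them, after their values were seen.

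GLR3.5 encodes a glutamate receptor-like protein, a family of ligand-gated cation channels known in plants for calcium entry and wound signalling. It read 5.24 and 6.10 in the controls. With sorbitol it read 5.16, 4.96 and 4.66 in run 1 and 5.98, 5.95 and 5.53 in run 2, each step lower than the last. With PEG it read 4.74, 5.21, 4.09 and 4.64, then 5.78, 5.34, 5.94 and 4.97, all below the controls but in no order of dose. With ethylene glycol it read 5.41, 4.99, 5.56 and 5.08, then 5.87, 5.78, 5.89 and 5.85. The lowest ethylene glycol array of each run lay above the 150 mM sorbitol and PEG arrays. NaCl gave 5.46, 5.32, 5.39 and 4.53, then 5.80, 5.75, 5.58 and 5.64, so in run 1 only the highest dose was low.

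APG8A, also written ATG8A, is a ubiquitin-like protein that is joined to lipid on forming autophagosomes, the vesicles of autophagy. It read 6.70 and 5.77 in the controls. Sorbitol gave 6.55, 6.37 and 6.23 in run 1 and 5.76, 5.34 and 5.40 in run 2. PEG gave 6.80, 6.35, 6.24 and 6.46, then 5.67, 5.59, 5.55 and 4.85, so the lowest reading was at 150 mM in run 2. Its NaCl readings were 7.09, 6.50, 6.54 and 6.71, then 5.56, 5.58, 5.91 and 5.82. They lie on both sides of the controls, and its NaCl slope was -0.016. Ethylene glycol gave 6.46, 6.59, 6.77 and 6.47, then 5.56, 5.83, 5.73 and 5.44, which overlap the sorbitol and PEG readings.

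AT5G55790 read 7.09 and 5.83 in the controls. It read 6.18, 6.28 and 6.12 with sorbitol in run 1 and 5.22, 5.50 and 5.10 in run 2, with most of the drop in place at 50 mM. PEG gave 6.67, 6.69, 6.30 and 6.21, then 5.35, 5.38, 5.63 and 5.02. In run 1 all ethylene glycol readings (6.58, 6.76, 6.89 and 6.89) were below the control and above all sorbitol readings. In run 2 they were 5.83, 5.47, 5.82 and 5.98, and the one at 100 mM lay just below the sorbitol reading at that dose. Its NaCl slope was -0.71 in run 1 and 0.31 in run 2. AT2G02630 read 4.96 and 5.10 in the controls and 4.44 and 4.25 at 150 mM sorbitol. Its lowest NaCl readings were 4.52 in run 1 and 4.14 in run 2, both at 75 mM, and its NaCl slope was -0.57. Ethylene glycol readings of AT2G02630 were 5.04, 5.07, 5.16 and 4.87 in run 1, near the control, but 4.56, 4.36, 4.84 and 4.75 in run 2, all below it.

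**Figure D5:**
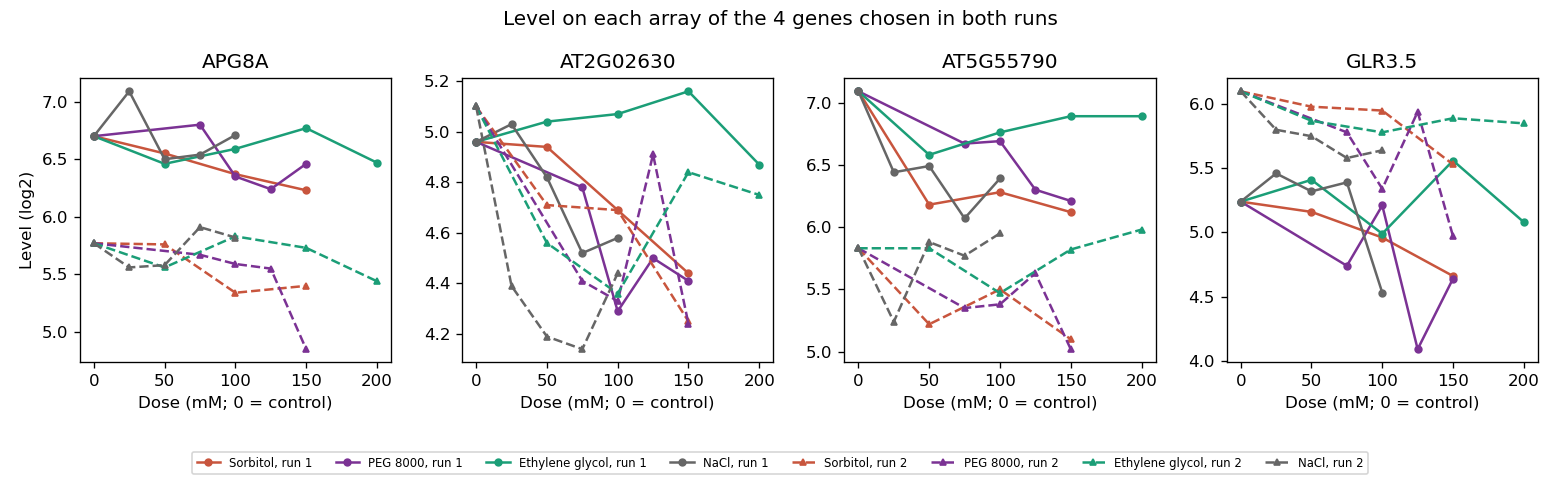
Level (log2) by dose (mM, control at 0) of the 4 genes that were chosen from run 1 alone and again from run 2 alone; colours are solutes, solid lines with circles run 1 and dashed lines with triangles run 2. The runs differ in level, with a difference of run 2 from run 1 of -0.97 for APG8A and 0.71 for GLR3.5, and the PEG and sorbitol lines end below the ethylene glycol line in each panel and run.

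Cell wall and conjugation enzymes among the members come from 2 of the gene lists examined. XTH21, a xyloglucan endotransglucosylase/hydrolase, an enzyme that cuts and rejoins wall xyloglucan, read 5.23 and 6.12 in the controls. With sorbitol it read 5.04, 4.73 and 4.66, then 5.63, 5.47 and 5.55. With PEG it read 4.94, 5.15, 4.82 and 5.04, then 5.82, 5.78, 5.35 and 5.43. All 14 arrays were below the control of their run. So were all 8 NaCl arrays, at 4.77 to 4.97 in run 1 and 5.45 to 5.86 in run 2. The NaCl slope was -0.35. Ethylene glycol gave 5.36, 4.86, 5.46 and 5.36, then 5.86, 5.96, 5.94 and 5.78, with 5 of 8 below the control.

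The UDP-glycosyltransferases UGT71C4 and UGT71D1, of a group that joins sugars to flavonoids and other small molecules, had unlike NaCl slopes. UGT71C4 read 5.27 and 5.85 in the controls and 4.86 and 4.84 at 150 mM PEG, with slopes of -0.29 for sorbitol and -0.42 for PEG. Its NaCl slope was -0.46, and all 8 NaCl arrays were below the control. UGT71D1 read 5.24 and 4.70 in the controls and 4.96 and 3.86 at 150 mM PEG, with slopes of -0.25 and -0.43. Its NaCl slope was -0.008, but its changes against the control from 25 to 100 mM NaCl were -0.44, 0.04, -0.39 and 0.06 in run 1. In run 2 they were -0.5, -0.44, 0.03 and -0.37, so its 25 mM arrays were already low. A difference between the 2 genes under NaCl was not tested. UGT71D1 was lower with sorbitol and PEG on all 14 arrays, and in run 2 its 4 PEG readings (4.24, 3.95, 4.02 and 3.86) lay below all others except 1 NaCl reading of 4.20.

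Regulators of transcription with a name were BZIP61, GT2, AGL30 and BPC1. BZIP61, a bZIP factor, read 8.35 and 7.83 in the controls, 7.85, 7.71 and 7.67 with sorbitol in run 1 and 7.38, 7.48 and 7.25 in run 2. Its ethylene glycol readings of run 1, from 8.19 to 8.26, lay above all of its sorbitol readings there. NaCl gave 7.75 to 7.93 in run 1 and 7.17 to 7.52 in run 2, with a slope of -0.35. GT2, a trihelix factor, had sorbitol, PEG and NaCl slopes of -0.28, -0.35 and -0.36. AGL30, a MADS-box factor, had slopes of -0.31, -0.27 and -0.29. BPC1, which binds GA repeats in promoters, had -0.26 and -0.34 but a NaCl slope of -0.064. The other named members were SCPL34, a serine carboxypeptidase-like protein (-0.31, -0.26, NaCl -0.21), and UBP21, a ubiquitin-specific protease (-0.36, -0.24, NaCl -0.19). The changes of UBP21 with NaCl against the control were -0.64 to -0.38 in run 1, but -0.06 to 0.13 in run 2. LpxA, an acyltransferase of lipid A synthesis, had slopes of -0.23 and -0.24. CRR42, known for chloroplast NAD(P)H dehydrogenase, had -0.23 and -0.24 and a NaCl slope of 0.13.

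Of 22 gene lists fitting osmotic stress and root growth, 16 held a gene named here. Members were in 2 of them, the xyloglucan enzymes with 1 of 10 and the UDP-glycosyltransferases with 2 of 55. Over all named genes the members were 99 of 16552. List genes under the level filter could not be members, so nothing is read from these member counts about the families. The lists of aquaporins, arabinogalactan proteins, extensins, Casparian strip proteins, receptor-like kinases and cyclins matched no named gene and are not analysed here. The lists were matched by symbol or synonym alone, so they are incomplete: named members such as BZIP61 and the receptor kinase AT1G08590 are in no list. Counts over the 247 list genes that are not members are a description, since genes that fell with both solutes had been taken out as members by the same slopes. With sorbitol, 1 of the 247 fell and 2 rose by limma adjusted p (0.134% and 0.343% of all genes), and the counts were 1 and 2 of 250 with the members put back. IQD19, of a calmodulin-binding family tied to microtubules, fell with a slope of -0.56 (SE 0.10, adjusted p = 0.00275). PUB24, a U-box ubiquitin ligase that restrains drought and immune signalling, rose by 0.57 (adjusted p = 0.00456), and the calmodulin-like CML37 by 0.60 (adjusted p = 0.0413).

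With PEG, 4 list genes that are not members fell and 4 rose (0.481% and 0.53% of all genes). With the members put back 5 fell, UGT71C4 being the other one. The fallers outside the members were IQD19 (-0.55, adjusted p = 0.00189), the cellulase GH9C1 (-0.54, adjusted p = 0.0172), the laccase AT5G01050 (-0.70, adjusted p = 0.0186) and XTH26 (-0.49, adjusted p = 0.0486). The risers were PUB24 (0.67, adjusted p = 0.000494), PUB23 (0.43, adjusted p = 0.0114), AT1G19840, which is the auxin-responsive SAUR53 (0.72, adjusted p = 0.0381), and WRKY41 (0.65, adjusted p = 0.0428). Every one of these calls was lost without the control array of run 2, IQD19 and PUB24 included. Those of XTH26, WRKY41 and CML37 were lost with any of 19, 15 and 14 single arrays left out. The xyloglucan enzymes that are not members had median slopes of -0.094 for sorbitol and -0.18 for PEG. Both lie below the medians of all genes (0.002 and 0.00019) and of the 10002 named genes of the level filter (-0.022 and -0.048). The other UDP-glycosyltransferases had medians of 0.02 and 0.016. XTH16 had a slope of -0.51 with sorbitol (adjusted p = 0.134) and -0.38 with PEG (adjusted p = 0.189).

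Run and dose slopes were also set against each other, a comparison the average over runs did not use. In limma with a separate slope for each run, 0 members differed between runs in the sorbitol slope (0.0% of all genes) and 0 in the PEG slope (0.0318%, 9 genes). With few or no genes called at all, 0 calls do not show that members fell alike in both runs. At an unadjusted p under 0.05 there were 7 for sorbitol (6.31% of all genes) and 8 for PEG (9.44%). The members' level itself differed between runs more often downwards. By limma adjusted p, 56 members were lower in run 2 (28.2% of all genes) and 23 higher (34.6%). Among the named genes of the same level filter, 41.8% were lower and 32.7% higher. The median difference was -0.24 over the members and -0.047 over the named genes. AT4G23870 had the lowest difference, -1.44 (SE 0.06), and AT5G55780 the highest, 0.81 (SE 0.08). The members' residual SD had a median of 0.21, against 0.17 over the named genes. The part of run differences and of noise in the choice was not tested.

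The members lay on all 5 chromosomes, with 32, 15, 18, 12 and 22 on chromosomes 1 to 5. That is 32.3%, 15.2%, 18.2%, 12.1% and 22.2%, beside 26.0%, 14.7%, 20.0%, 15.0% and 23.3% of the named genes. In the RefSeq order 3 pairs were direct neighbours. AT1G24090 and AT1G24095 had sorbitol slopes of -0.34 and -0.32 and NaCl slopes of -0.31 and -0.30. AT5G05880 and AT5G05890 had sorbitol slopes of -0.27 and -0.37, and AT5G55780 and AT5G55790 had -0.25 and -0.47. The last pair differed in opposite directions between the runs, by 0.81 and -0.94.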

How the data were processed

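Biotin-labelled cDNA from total root RNA was hybridised to Affymetrix whole-transcript arrays with 1 channel, per the labels' protocols. The authors deposited 1 normalised log2 value per probe set and array; the tools named per the submitters' processing notes, without versions, are GCRMA, Transcriptome Analysis Console and Affymetrix Expression Console. Neither the log base nor a between-array scaling step is stated there, and log2 was read from the range of the values. If the base were another, folds would change. Of 28477 probe sets, 16746 list 1 gene in the array annotation, 758 several and 10973 none. By gene identifier 16601 matched RefSeq and 94 by locus. The highest-mean probe set per gene was kept, setting aside 194.

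All fits were made in limma 3.58.1 (R 4.3.3), with 1 mean per group, the run as replicate block, eBayes with a trend, and Benjamini-Hochberg adjustment over 28283 genes at 0.05. On simulated data the mean estimates came close to the slopes put in, but most NaCl slopes over treated doses were not called, so an absence of calls there is weak evidence. The number of arrays limits the precision. Deviations from group means in the same run correlated between groups (0.501 to 0.767 over 120 pairs, median 0.672), so runs pair the arrays.

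The members, lists and settings were chosen with earlier results of these data known. Genes named are the 20 with the lowest value of the larger slope, members in a list, the 3 smallest p-values in each direction for NaCl over treated doses, genes at the end of the choice, and list genes with small p-values. Members that carry a gene name, extremes and chromosome neighbours were added after their values were seen. A planned search of promoter sequences was not run and sequences are not used here. Alternatives were other scalings, no replicate block, other filters and each array left out, the last for list genes and run differences chosen after seeing the data.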

Additional observations from a re-analysis of the deposited data

How the results depend on the processing

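The control arrays set most of the list. Reapplying the choice with 1 array left out found between 26 and 99 of the 99 members, with 26 without the run 1 control, 28 without the run 2 control, and 60 and 56 without the 150 mM sorbitol arrays of runs 1 and 2. An ethylene glycol bound of 0 found 22, since it removes the 77 members with a slope below 0, and one of -0.2 found 47, since other genes then entered. Centring, quantile normalisation and no level filter found 94, 79 and 87. Leaving out 1 array moved the members' median slopes from -0.32 to -0.251 for sorbitol, -0.3228 to -0.291 for PEG, -0.05471 to 0.003 for ethylene glycol and -0.37 to -0.158 for NaCl with the control. Over treated doses alone the sorbitol median was -0.175 and the ethylene glycol median turned to 0.043. In run 1 alone they were -0.334 and -0.036. For the NaCl slope over treated doses, leaving out 1 array gave 0 members lower and 0 to 1 higher, 1 to 10 lower and 49 to 203 higher among all genes, and a members' median from -0.116 to 0.0128. The 49 came without the run 2 array at 25 mM, and the counts were 104 without that of run 1, and 94 and 75 without the 100 mM arrays; the lower genes were 10 and 8 without the 25 mM arrays of runs 2 and 1, 8 and 3 without those at 50 mM, and 1 without either at 100 mM. NaCl arrays fitted alone gave 1 member higher. With no replicate block 0 genes were lower and 1 higher there, and 0 list genes fell and 0 rose with sorbitol or PEG. Quantile normalisation gave 7 list genes that rose with PEG. Leaving out 1 array gave 0 to 1 that fell and 0 to 3 that rose with sorbitol, and 0 to 6 that fell and 0 to 5 that rose with PEG. Members with a run difference of slope stayed at 0 throughout. With run 2 choosing, the slopes in the other run were -0.119 and -0.1208. Where a value moved, the cause was not tested. Each run holds 1 control array, and the median residual SD over all genes was 0.19 log2 units.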
